A study of Caenorhabditis elegans with 2 samples.

Results

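The Rb, E2F and DREAM complex genes of Caenorhabditis elegans were taken by name as lin-35, efl-1, dpl-1, lin-9, lin-37, lin-52, lin-53 and lin-54, which makes 8 of the 19985 protein-coding genes in the annotation. They were examined for regions recovered with UNC-130, a forkhead transcription factor, by chromatin immunoprecipitation and sequencing (ChIP-seq). A region was given to a gene when its summit, the point of highest enrichment, lay between 1000 bp upstream of the first transcript start and the end of the gene. By this rule the 8 genes held 4 of the 1168 entries in the authors' final (optimal) list. They held 20 of 22106 candidate regions from the pooled replicates, 16 of 21622 from replicate 1 and 13 of 20625 from replicate 2.

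The worms were of strain AGK541, which carries the insertion armSi1 on chromosome II together with the rescue gene cb-unc-119(+), the mutation unc-119(ed3) on chromosome III, and niDf199 on chromosome IV. From armSi1, UNC-130 fused to GFP is driven by the promoter of the germline gene mex-5 (Pmex5) and followed by the 3′ UTR of tbb-2, which encodes a tubulin. A further label describes the tag as GFP-FLAG at the C-terminus. Whole young adult hermaphrodites were collected 56 hours after synchronization at the starved L1 stage, and the labels disagree on the antibody, naming GFP as its target in the description and unc-130 in another field. Whether regions come from the transgene product alone or also from untagged UNC-130 was not tested. The 2 biological replicates form 1 group with no second condition. The promoter of the transgene is not that of unc-130, and in whole worms the cells that a region comes from cannot be told apart. The lists hold no read counts, so depth is unknown and the intervals below cover counting error over genes or regions only.

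LIN-35 is the pocket protein of C. elegans, the counterpart of mammalian Rb and its relatives. EFL-1 and DPL-1 are the E2F and DP proteins, which bind DNA as a heterodimer. LIN-9, LIN-37, LIN-52, LIN-53 and LIN-54 form the MuvB core, and with the pocket protein and E2F-DP they make up the DREAM complex. DREAM is known as a repressor of cell cycle genes and, in the soma, of germline genes, and its genes were found in C. elegans as synMuv B genes that restrain vulval fate.

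The following stretches of the WBcel235 (ce11) RefSeq genome are shown because they hold the E2F-type strings nearest to the regions described here, on the chromosomes from which sequence is given. Capitals mark the string on the strand named; in the lin-9 line, capitals also mark a neighbouring TTCAAA, the reverse complement of the CHR string TTTGAA.
lin-9, chrIII:8904199-8904227, minus strand: gccatTTCAAAgtttttTTCGCGCgcgcg
lin-54, chrIV:13240614-13240642, plus strand: gtcgcgaggacTTGGCGCcggcgaattga
lin-54, chrIV:13240745-13240773, minus strand: taaaaaattgtTTCGCGCgccgaaatttg
efl-1, chrV:16965886-16965914, minus strand: agcgaaactttTTCCCGCggaaatttgag
lin-52, chrIII:9825678-9825706, plus strand: aaatctaaattTTGGCGCgcgtagtgttg
dpl-1, chrII:9169202-9169230, plus strand: gttagtccataTTCCCGCgcagattgagg
The lin-9 and lin-54 stretches lie in regions of the optimal list, and the efl-1 stretch lies in a region just outside it. The lin-52 stretch lies in a weak candidate region, and the dpl-1 stretch lies in no candidate region assigned to dpl-1.

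Of the 8 genes, lin-35, lin-9, lin-53 and lin-54 held a summit of the optimal list, which is 50.0% (95% Wilson interval 21.5 to 78.5%) against 6.27% of all protein-coding genes. Among the 10461 genes with any pooled candidate summit, 12.0% held an optimal one. All 4 summits lay upstream of the gene, and with the promoter window alone, from 1000 bp before to 200 bp after a transcript start, the count was again 4 against 5.34% of genes. With an upstream limit of 500 bp the count was 4 against 5.39% of genes, with 2000 bp 4 against 7.55%, and with any overlap of region and window 4 against 7.45%. In the upper part of the optimal list (584 entries) it was 4 against 3.33%, and with the lowest optimal signal of the list on the older ce10 build, an alternative added after the data were seen, it was 5 with efl-1 against 7.78%. A pooled candidate summit was present at 8 of 8 genes, against 52.3% of genes, and in the promoter window at 7, all but dpl-1, against 36.4%. Replicate 1 held a candidate at 8 genes (51.9% of all genes) and replicate 2 at 7, all but lin-37 (52.5%). The members were picked by name with earlier results of these data known, so these counts are descriptions and no test was made of them.

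The signal values are those of the authors, and no source says what scale they are on. They serve to order the regions within a list, where rank 1 is the highest. The optimal list consists of the 1168 pooled regions at or above a signal of 53.5, and the next pooled region had 53.47. In the optimal list the nuclear regions had a median signal of 74.1 (quartiles 62.0 and 97.6) and the highest had 390. The lowest of the 4 member signals exceeded 87.5% of these nuclear signals. Pooled regions that overlapped no optimal one had a median of 16.3 (quartiles 13.5 and 21.3, n = 20584).

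**Figure D1:**
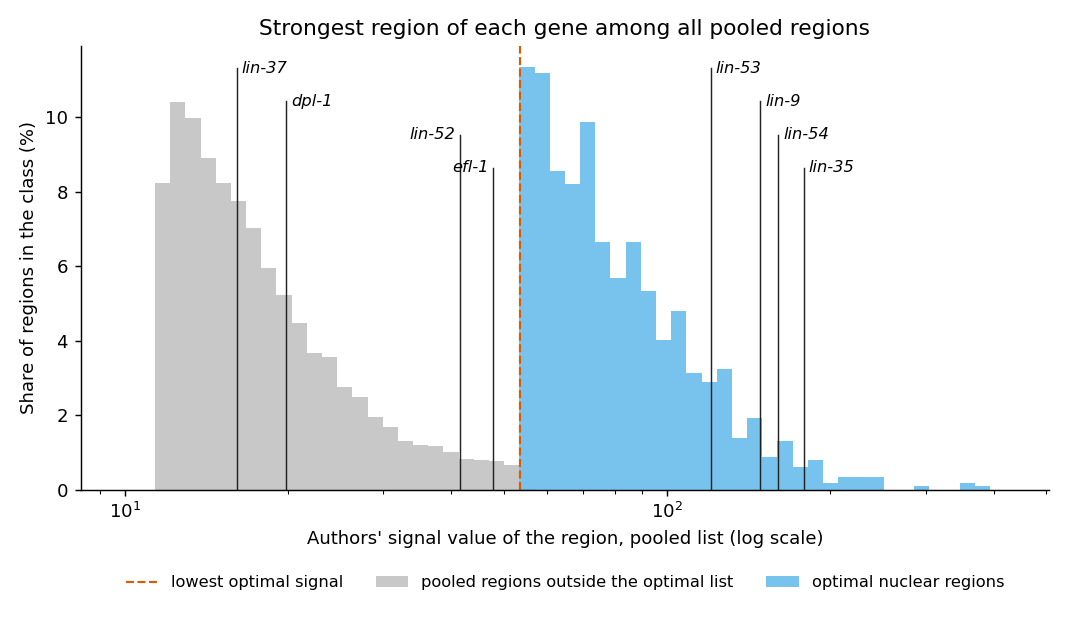
Distribution of the authors' signal value on a log axis for optimal nuclear regions (blue) and for pooled regions that overlapped none of them (grey), each as a share of its class, with a black line at the strongest pooled region of each gene. The lines of lin-35, lin-54, lin-9 and lin-53 lie between 121 and 179 in the upper tail of the optimal regions, those of efl-1 and lin-52 lie at 47.8 and 41.6, below the lowest optimal value (dashed), and those of dpl-1 and lin-37 lie among the bulk of weaker regions.

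The pocket protein gene lin-35 (WBGene00003020, I:5807709-5815637, plus strand) held the strongest region of the 8 genes. The region at I:5807435-5807625 had a summit 189 bp upstream of the start, a pooled signal of 179 and rank 44 of the pooled list, or rank 28 among nuclear entries. In replicate 1 its signal was 98.8 at rank 47, with the summit 205 bp upstream. In replicate 2 its signal was 76.9 at rank 62, with the summit 189 bp upstream. Both replicates thus placed the lin-35 promoter among their best regions, and of 1144 nuclear optimal regions present in both lists, 23 ranked better than it in both. The nuclear optimal regions whose replicate ranks were most like these over both lists lay at wip-1, a homolog of the WASP-interacting protein that acts on actin (ranks 44 and 63), at hcp-3, which encodes the centromeric histone CENP-A (ranks 54 and 54), and at hmg-12, an HMG protein gene (ranks 57 and 56).

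A second lin-35 region lay at the other end of the gene. Its summit fell in the 3′ UTR exon, 7826 bp from the start, at I:5815320-5815749, where the end of lin-35 meets that of hmg-3. The pooled signal was 48.3 at rank 1414, which is below the optimal list. In replicate 1 the signal was 38.2 at rank 724, and in replicate 2 it was 13.1 at rank 5746. Of the 7 member regions with a pooled signal above 40, the replicates differed most in this one. Its worse rank was 7.94 times the better one. The median ratio was 1.73 (quartiles 1.29 and 2.47) over the nuclear optimal regions, all of higher pooled signal than this region. No median was taken over regions outside the list.

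The E2F gene efl-1 (WBGene00001161, V:16958590-16965675, minus strand) came close to the optimal list. Its strongest region, V:16965690-16966119, had a summit 230 bp upstream of the start, a pooled signal of 47.8 and rank 1438. Replicate 1 gave 24.0 at rank 1837 and replicate 2 gave 22.3 at rank 1688, so the replicates ranked it alike, with a ratio of 1.09. The efl-1 promoter stood below the 4 optimal promoters in the pooled list and in each replicate list. A further summit 440 bp upstream had a pooled signal of 13.2 and was matched in replicate 2 at 471 bp upstream.

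The DP gene dpl-1 (WBGene00001061, II:9169910-9172565, plus strand) had no candidate summit in its promoter window in any of the lists. This gene lies inside T23G7.2, a gene on the opposite strand at II:9167933-9172949. Its sole pooled region had a summit in the 3′ UTR exon, 2629 bp from the start, which is also an intron of T23G7.2, 410 bp from the start of that gene. The pooled signal was 19.9 at rank 7551, near the upper quartile of the regions outside the optimal list. Replicate 1 gave 15.9 at rank 4350, with the summit 2556 bp from the start. Replicate 2 gave 8.66 at rank 15223, with the summit 2332 bp from the start, which is 297 bp from the pooled summit. The DNA-binding partners EFL-1 and DPL-1 thus differed at their own genes, efl-1 with a promoter region and dpl-1 without one.

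Of the MuvB core genes, lin-54, lin-9 and lin-53 held optimal promoter regions. LIN-54 is the subunit that binds the CHR element of cell cycle gene promoters. At lin-54 (WBGene00003037, IV:13241044-13243401, plus strand) the region IV:13240608-13240817 had a pooled signal of 160 and rank 64. Replicate 1 gave 73.7 at rank 110 and replicate 2 gave 82.1 at rank 51, and the summit stood 331 bp upstream in the pooled list and in both replicates. It was the member with the best rank in replicate 2, ahead of lin-35.

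LIN-9 is a subunit of the MuvB core and is named LIN9 in mammals. At lin-9 (WBGene00002998, III:8900237-8904131, minus strand) the region III:8904144-8904339 had a summit 118 bp upstream, a pooled signal of 149 and rank 80. Replicate 1 gave 94.8 at rank 52, with the summit 77 bp upstream, and replicate 2 gave 55.3 at rank 184, with the summit 161 bp upstream. The ratio of its ranks, 3.54, was the widest of the 4 optimal promoters and above the upper quartile of the nuclear optimal regions. In both replicates the region still ranked within the best 1168.

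LIN-53 is the homolog of the histone-binding proteins RbAp46 and RbAp48 and also takes part in other chromatin complexes. At lin-53 (WBGene00003036, I:9618196-9619760, minus strand) the region I:9619907-9620038 had a summit 218 bp upstream, a pooled signal of 121 and rank 162. Replicate 1 gave 69.7 at rank 141 and replicate 2 gave 47.6 at rank 294. It was the lowest of the 4 optimal promoters in the pooled list and in each replicate. Its paralog rba-1 begins 88 bp downstream on the same strand and held no optimal summit by the rule used here. With an upstream limit of 2000 bp, the rba-1 window reached across lin-53 and took in the lin-53 optimal summit itself, not a separate region. The best pooled signal of rba-1 within the rule was 27.7, at a summit 1523 bp from its start, in the promoter window of K07A1.10.

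LIN-52 is the MuvB subunit that in mammals joins the core to the pocket protein. At lin-52 (WBGene00003035, III:9824083-9824750, minus strand) the strongest region, III:9824668-9825097, had a summit 133 bp upstream, a pooled signal of 41.6 and rank 1812. Replicate 1 gave 29.0 at rank 1286, with the summit 178 bp upstream. Replicate 2 split the region into a summit 22 bp upstream with 15.3 at rank 3835 and another 298 bp upstream with 12.6 at rank 6303. The pooled summit fell in the 3′ UTR exon of ZK632.9, which ends 126 bp upstream of lin-52 on the same strand. The promoter of ZK632.9 had its own candidate region, with a pooled signal of 31.7 at rank 2874.

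LIN-37 is a MuvB subunit that in mammals is needed for repression by DREAM. At lin-37 (WBGene00003022, III:7070890-7072552, minus strand) the strongest region, III:7072326-7072755, had its summit 11 bp inside the gene, a pooled signal of 16.1 and rank 11948. Replicate 1 gave 9.42 at rank 14348, and replicate 2 held no candidate at lin-37. This signal was close to the median of the regions outside the optimal list. The gene ZK418.5 ends 60 bp upstream on the same strand, and its promoter had a pooled signal of 23.2 at rank 5452, with 17.0 at rank 3720 in replicate 1 and none in replicate 2.

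**Figure D2:**
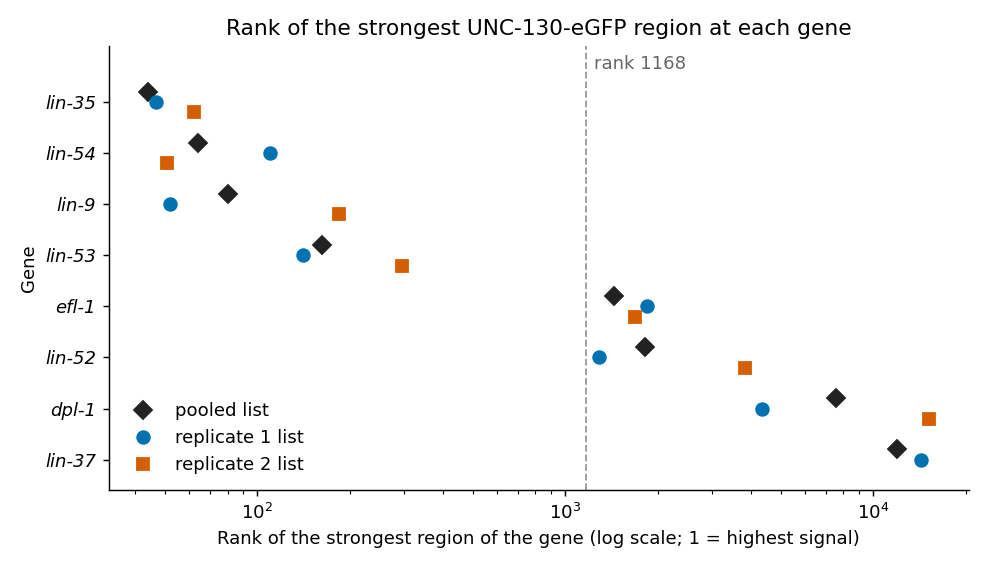
Rank of the strongest region of each gene in the pooled list and in the list of each replicate, on a log axis where lower ranks are stronger, with a dashed line at rank 1168, the length of the optimal list. The regions of lin-35, lin-54, lin-9 and lin-53 lie on the strong side of the line in all 3 lists, those of efl-1 and lin-52 lie beyond it, from rank 1286 to rank 3835, and lin-37 has no point for replicate 2.

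The order of the optimal promoters was lin-35, lin-54, lin-9 and lin-53 in the pooled list. In replicate 1 it was lin-35, lin-9, lin-54 and lin-53, and in replicate 2 it was lin-54, lin-35, lin-9 and lin-53. Neighbours in the pooled order therefore changed places between the replicates, except that lin-53 stayed the lowest of the 4. Outside the list, lin-52 ranked better than efl-1 in replicate 1 and worse in replicate 2. Of the 20 pooled member regions, 13 were overlapped by a candidate in both replicates, neighbouring regions of efl-1 and of lin-53 being overlapped by the same ones. Of the others, 3 were overlapped in replicate 1 alone, 1 in replicate 2 alone and 3 in neither.

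The best 1168 regions of each replicate gave the same 4 genes, against 6.18% of all genes in replicate 1 and 6.22% in replicate 2. At the level of all genes, 3.79% had a promoter summit in the optimal list and among the best 1168 regions of both replicates. The lin-35 3′ region was also within the best 1168 of replicate 1, and no other member region was added by either replicate.

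The 16 pooled member regions outside the optimal list had signals from 11.7 to 48.3. By the position of the summit, 9 of the 20 pooled member regions lay upstream, 5 in a coding exon, 4 in an intron and 2 in a 3′ UTR exon. Within the bodies of lin-35, efl-1, lin-9, lin-53 and lin-54, coding and intron summits had pooled signals up to 19.1, the highest being an intron of lin-9 (19.2 at rank 2887 in replicate 1). The strong regions of these genes were thus at their 5′ ends, with the 3′ end of lin-35 as the exception in the range just below the list.

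**Figure D3:**
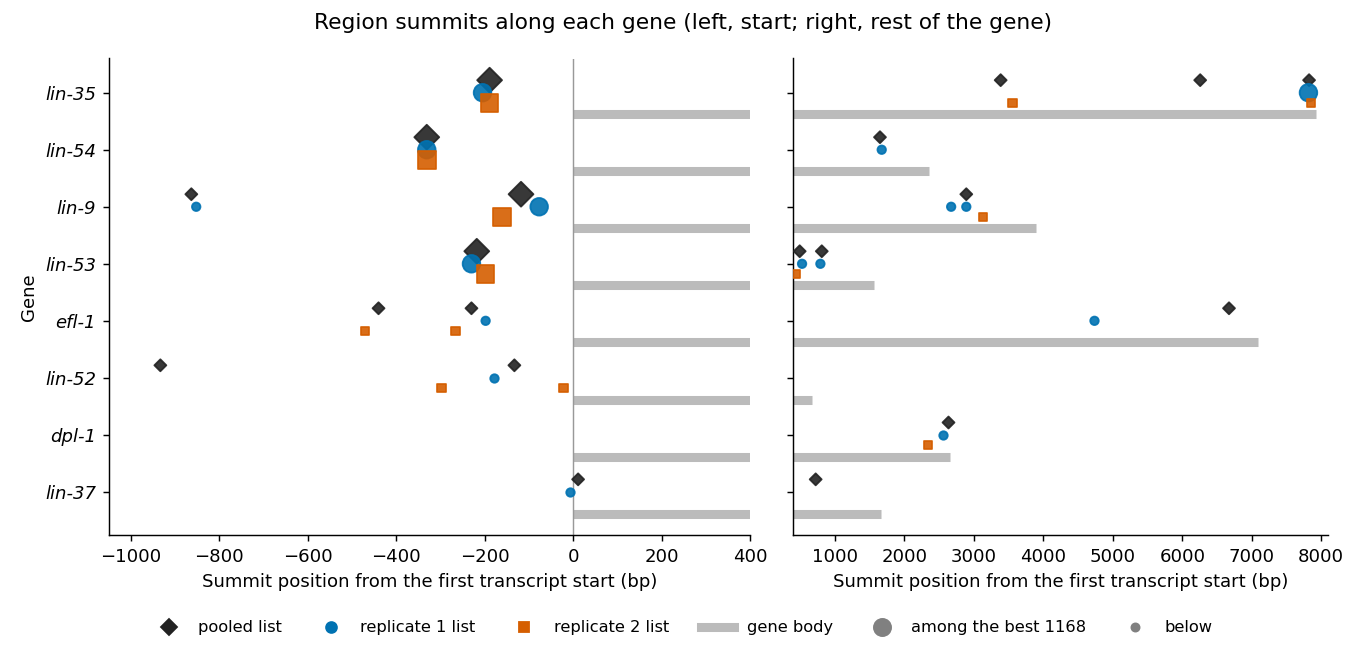
Position of every candidate summit at the 8 genes as distance in bp from the first transcript start, near the start (left) and over the rest of the gene (right), for the pooled list (diamonds), replicate 1 (circles) and replicate 2 (squares), with larger symbols for ranks within the best 1168 and a grey bar for the gene body. Large symbols of all 3 lists gather from 77 to 331 bp upstream of lin-35, lin-54, lin-9 and lin-53, and the 3′ end of lin-35 has a large symbol for replicate 1 alone.

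The 4 optimal member regions were narrow, 132 to 210 bp wide, whereas the commonest width in the list was 430 bp. Of the 1168 entries, 18.4% were narrower than that width, and their median signal was 128 against 70.0 at the common width. The summits stood 62 to 218 bp from the nearest protein-coding start, which for the lin-54 region is that of rpl-12, and over 780 optimal summits in promoter windows the median distance to the nearest start was 199.5 bp (quartiles 107 and 340). The GC content of the 200 bp around the summit was 38% at lin-35, 39.0% at lin-54, 50.0% at lin-9 and 47.5% at lin-53. The median was 39.0% at optimal promoter summits, so lin-9 and lin-53 lay above it.

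Of the 4 optimal promoters, 3 are shared with a gene on the other strand. The lin-35 start lies head to head with vps-51, which encodes a subunit of a vesicle tethering complex, across a gap of 417 bp, and the summit stood 189 bp from lin-35 and 229 bp from vps-51. The lin-53 start lies 466 bp from that of nra-2, which encodes a nicalin homolog of the endoplasmic reticulum, and the summit stood 218 bp from lin-53 and 249 bp from nra-2. Between lin-54 and rpl-12, which encodes a protein of the large ribosomal subunit, the gap is 392 bp. There the summit stood 331 bp from lin-54 and 62 bp from rpl-12, so that rpl-12 is the nearer gene. At lin-9 the gap to unc-32, a gene for a vacuolar proton pump subunit, is 1483 bp, and the summit fell in the window of lin-9 alone, 118 bp from its start and 1366 bp from that of unc-32.

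Sharing was common in the whole list, where 308 of 780 promoter summits (39.5%) lay in the windows of several genes at once. In a shared window the lists do not say which gene a region belongs to. When each summit was given to the nearest start alone, 3 of the 8 genes kept an optimal summit, lin-54 being the gene without one, against 4.29% of all genes. This way of assignment was added after the data were seen.

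E2F-type strings were searched in 4 forms, with TTCCCGC as the first, TTGGCGC as the second, TTCGCGC as the third and TTGCCGC as the fourth, on both strands in the 200 bp around each summit. They were present at 3 of the 4 optimal member summits (interval 30.1 to 95.4%), against 22.9% of all optimal summits (268 of 1168) and 27.9% of those in promoter windows. The share was 8.73% at pooled summits outside the list and 6.28% in the 200 bp upstream of all nuclear protein-coding genes. The exception among the 4 was lin-35, which had none of the strings in its whole window from 1000 bp upstream to 200 bp downstream either. A match describes letters only, and no match says nothing of a factor's binding.

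The lin-9 string TTCGCGC lay 42 bp from the pooled summit and 76 bp upstream of the start. At lin-54 the string TTCGCGC lay 46 bp from the summit, and TTGGCGC lay 85 bp from it, in the 5′ UTR exon of rpl-12. At lin-53 the string lay 78 bp from the summit. None of these strings was under the summit itself. In windows of 100 bp, 2 of the 4 optimal member summits had a string. The share at that width was 15.4% of all optimal summits, 19.2% of those in promoter windows and 4.67% of pooled summits outside the list. Among the best 1168 regions of each replicate, 2 of 5 member regions had a string within 100 bp in replicate 1 and 1 of 4 in replicate 2.

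Among the members outside the list, efl-1 had TTCCCGC 5 bp from its pooled summit, closer than any other of the strings shown above. A second one, TTGCCGC, lay 363 bp upstream of efl-1, 133 bp from that summit. At lin-52 the string lay 942 bp upstream, 809 bp from the strongest summit and 9 bp from a weak one (pooled signal 16.2). The dpl-1 string lay 694 bp upstream, in a coding exon of T23G7.2, with no candidate summit of dpl-1 near it. The window of lin-37 held no string from 1000 bp upstream to 200 bp downstream, while an intron summit of lin-37 with a pooled signal of 12.9 had one. In all, 7 of the 20 pooled member summits had an E2F-type string within their 200 bp (35.0%, interval 18.1 to 56.7%). The 7 include 3 optimal summits and both efl-1 promoter regions, which overlap. The share was 8.73% at pooled summits outside the list and 22.9% at optimal ones, and the 20 member summits mix both kinds. In the whole promoter window of the first start, a search added after the data were seen, 6 of the 8 genes had such a string, against 30.3% of 19973 nuclear protein-coding genes.

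**Figure D4:**
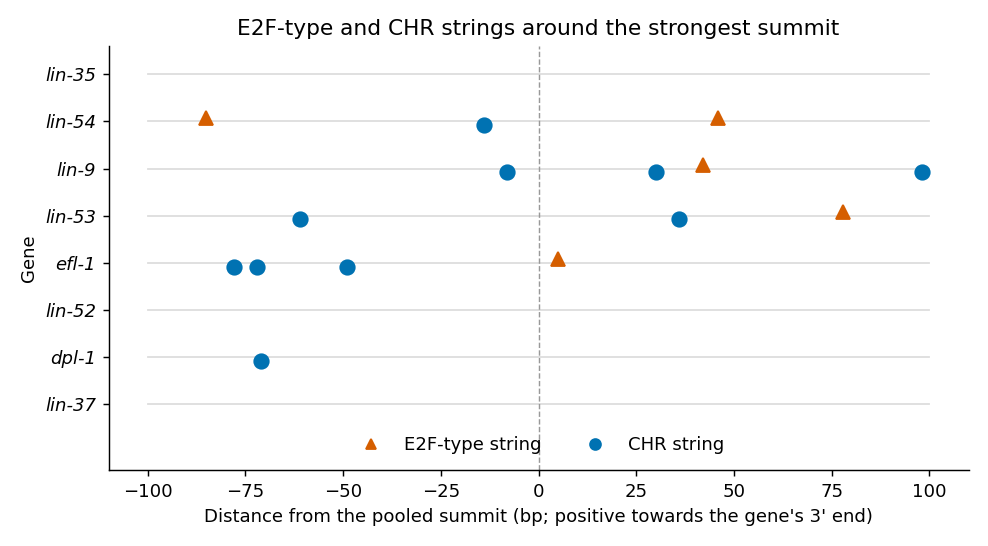
Position of each E2F-type string (triangles) and CHR string (circles) as distance in bp from the strongest pooled summit of each gene, positive towards the 3′ end of the gene, within the 200 bp windows drawn as grey lines. The E2F-type strings lie 5 bp from the summit of efl-1 and 42 to 85 bp from those of lin-54, lin-9 and lin-53, and the lines of lin-35, lin-52 and lin-37 hold neither kind.

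The CHR strings TTCGAA and TTTGAA, the letters of the element that LIN-54 proteins bind, were present at 3 of the 4 optimal member summits. They are common letters, found at 50.2% of optimal summits, 48.7% of pooled summits outside the list and 56.1% of upstream windows, so the member count is near the background. An E2F-type and a CHR string within 30 bases of each other were found at lin-9 alone of the 4, with 6 bases between them. This pair, searched after the data were seen, was at 8.22% of optimal summits and 11.2% of those in promoter windows, against 1.5% of the pooled summits outside the list and 1.29% of upstream windows.

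The forkhead string GTAAACA, searched because UNC-130 is a forkhead protein, was at 0 of the 4 optimal member summits (95% Wilson upper limit 49.0%). It was rare throughout, at 3.0% of optimal summits, 2.13% of pooled summits outside the list and 3.47% of upstream windows. Among the 20 pooled member summits 1 had it, a weak region in a coding exon of lin-53 (pooled signal 16.4). Outside the summit windows, the promoter window of lin-9 held it 553 and 985 bp upstream of the start, and no other of the 8 promoter windows had it, against 15.1% of all nuclear protein-coding genes.

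Other genes of the pathway were taken as lists. Of 16 other E2F and synMuv B genes, 2 held an optimal summit (12.5%, interval 3.5 to 36.0%), against the 6.27% of all genes. They were ubc-9, which encodes the SUMO conjugating enzyme (pooled signal 81.5, rank 498, ranks 640 and 425 in replicates 1 and 2), and lin-61, which encodes a protein with MBT repeats that binds methylated histone H3. The lin-61 summit had a pooled signal of 55.5 at rank 1086 and lies in a window shared with the checkpoint kinase gene bub-1. The other E2F genes efl-2 and efl-3 had best pooled signals of 15.3 and 22.3.

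The 7 genes taken as regulators of Rb proteins were the cyclin, CDK, CDK inhibitor and Cdh1 genes cyd-1, cdk-4, cye-1, cdk-2, cki-1, cki-2 and fzr-1. Of these, 0 held an optimal summit (Wilson upper limit 35.4%), against 6.27% of all genes. The strongest was the cyclin E gene cye-1, named after its values were seen, with a summit 975 bp inside the gene, a pooled signal of 49.2 and rank 1369.

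Of 15 genes of DNA replication and mitosis, a class that includes known E2F targets, 9 held an optimal summit (60.0%, interval 35.7 to 80.2%), against 6.27% of all genes. The strongest were mcm-2, for a subunit of the replicative helicase, and pcn-1, for the sliding clamp PCNA, with pooled signals of 143 and 126 at summits in their promoter windows, and mcm-4, for another helicase subunit. The mcm-4 value of 125 belongs to a summit 3503 bp downstream of the first start, outside any promoter window. Of the 2 optimal summits of mcm-4, the weaker lay in its promoter window. The replicate ranks were 128 and 87 for mcm-2, 242 and 114 for mcm-4, and 414 and 80 for pcn-1. An E2F-type string was within the 200 bp of 8 of 10 optimal summits of this list, against 22.9% of all optimal summits and 27.9% of those in promoter windows. The 4 member promoters thus had signals from 121 to 179, beside 143 at the mcm-2 promoter.

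**Figure D5:**
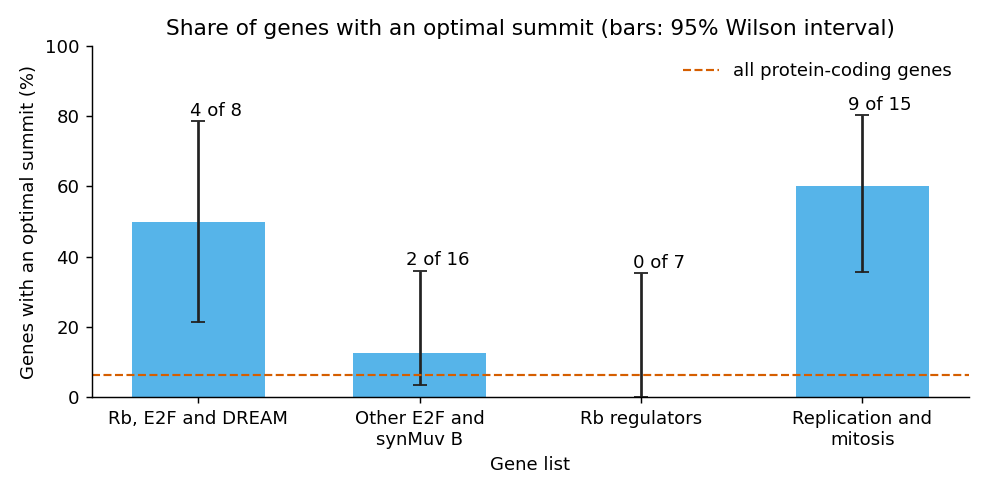
Share of genes with an optimal summit, in percent with 95% Wilson intervals, for the 8 Rb, E2F and DREAM genes and 3 further lists, with the share of all protein-coding genes as a line at 6.27%. The DREAM genes (4 of 8) and the replication and mitosis genes (9 of 15) stand above the line with their intervals, and the intervals of the other lists include it.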

How the data were processed

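The authors deposited candidate regions per replicate and for the pool, intended for the irreproducible discovery rate (IDR) procedure, and a final optimal list. No label or file header read here names the aligner, the peak caller or the IDR threshold (not given in the sources used here). Each region's signal is as the authors deposited it, and replicates were compared through ranks only (entries with a higher signal plus 1). The deposited −log10 q-value was at its highest, 3.56, for 1819 pooled entries, among them every optimal entry, and was not used further. The lin-35 3′ region and the strongest efl-1 and lin-52 regions, all outside the optimal list, had this value too. The deposited summit offset gave the summit position. Columns without a sample or pool numbered 0. Nothing was tested on the lists: shares carry 95% Wilson intervals.

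Gene windows, neighbours and strings were computed on ce11 coordinates (1-based) with the WBcel235 annotation (Ensembl release 115) and the RefSeq genome of the same build, using Python 3.11.15, pandas 2.3.3, numpy 2.4.6 and scipy 1.17.1. Counting was checked on simulated data. Members and lists were chosen with earlier results of these data known. Named genes were the 8 members, the genes whose promoter window holds an optimal member summit, up to 3 genes of each list with the highest optimal signal, and the 3 regions most like the strongest one in the sum of rank differences. Other genes named were chosen after their values were seen. The reads and the control sample were not used here.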

Additional observations from a re-analysis of the deposited data

How the results depend on the processing

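The count of the 8 genes with an optimal summit was 4 under upstream limits of 500 and 2000 bp, the promoter window alone, overlap in place of the summit, the upper part of the list (584 entries) and each replicate alone. The 4 summits lay 118 to 331 bp upstream and ranked from 44 to 162. The other windows and the 584 entries therefore could not lower the count, by construction. The count was 5, with efl-1 added, when the lowest ce10 optimal signal was applied to the pooled ce11 list. It was 3 with the nearest start alone, and both settings were added after the data were seen. With the 584 entries, the share of all genes was 3.33%, other E2F and synMuv B genes gave 1 and replication and mitosis genes gave 4, with fewer regions by construction. The ce10 value gave 4 other E2F and synMuv B genes and 1 Rb regulator, and the nearest start gave 1 of the former. Without 1 of the replicates, the former ranged from 1 to 3 and Rb regulators from 0 to 1 (cye-1, without replicate 2). With TTNNCGC in place of the E2F-type strings, the count at optimal member summits stayed at 3 of 4 (interval 30.1 to 95.4%). The share rose to 47.9% at all optimal summits, to 53.6% at those in promoter windows and to 28.0% at pooled summits outside the list. In the latter, windows of 100 and 400 bp gave 4.67% and 14.9%; a longer window holds more letters. Where no construction is named, the cause was not tested. No paired analysis was possible because there is 1 group. Depth is unknown, and with 8 genes and 4 summits the intervals are wide.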
